A study of Mus musculus with 14 samples.

Results

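The late step of glial differentiation was measured by comparing the day 8 libraries with the day 4 libraries of differentiating mouse neural stem cells, blocked by treatment. Neural stem cells (NSC) are cultured progenitors that divide in growth medium and can make astrocytes, oligodendrocytes and neurons after they leave it. All 6 libraries compared, of 14 libraries in the series, came from NSC of the OG2 strain at passage 8, a mouse line known to carry a fluorescent reporter under Pou5f1 (Oct4) regulatory sequence. Each day had 1 library labelled NC, letters the labels do not spell out, with no drug named, 1 from cells cultured with naloxone, an antagonist of opioid receptors, and 1 from cells cultured with DAMGO, a peptide agonist of the mu opioid receptor (written Damgo in the labels and here). No source used here gives the drug doses, the medium that started differentiation and the number of cultures or animals behind a library. The series asks how the 2 drugs act on proliferation and differentiation, and the comparison of the 2 days asks what the later days of differentiation changed whatever the drug.

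Astrocytes are the glial cells that take up glutamate and potassium around synapses, carry lipid in apolipoprotein particles, store glycogen and share metabolites through gap junctions. Their maturation is known to depend on cytokines that act through STAT3 and on bone morphogenetic proteins (BMP), while oligodendrocytes arise from dividing precursors that stop at a committed state before they make myelin. Astrocytes exposed to injury or inflammation also turn on a set of reactive genes, among them complement, protease inhibitors and antigen presentation. These roles are background, and none of them was measured here apart from RNA.

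No condition was replicated: the 3 libraries of a day differ in treatment, and the days pair by treatment. The p-values therefore measure the spread that remains after stage and treatment are fitted over 12 libraries (4 stages by 3 treatments, 6 residual degrees of freedom), drug effects that differ between stages included. The 6 libraries held 4143030 to 9070533 estimated counts. Levels below are CPM, counts scaled to library size, after TMM scaling, listed for a day in the order NC, Naloxone, Damgo. Changes are fitted log2 differences of day 8 minus day 4 ± SE with edgeR's Benjamini-Hochberg adjusted p over all genes tested. The SE was derived from the test, as the absolute fitted difference divided by the square root of the F statistic, and was not estimated separately. For genes with few counts at a stage it is not a reliable measure of the uncertainty of the change. Across genes, log2 levels correlated at r = 0.982 to 0.989 between libraries of the same day and at 0.841 to 0.885 between days, over the genes tested and with library noise shared. In these bulk libraries, fewer cells of a type and less RNA per cell cannot be told apart.

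The late step reached most of the transcriptome. Of 13144 genes tested, 9001 (68.5%) passed an adjusted p of 0.05, 4874 (37.1%) higher and 4127 (31.4%) lower at day 8, and 8961 of the called genes had the same direction in all 3 treatment pairs. A change of at least 2-fold was called for 1743 genes higher (13.3%) and 2196 lower (16.7%), and 99 genes were at least 16-fold higher while 19 were at least 16-fold lower. The median log2 change over all genes tested was 0.07. Counts of list members below are to be read against the 37.1% higher and 31.4% lower of all genes. The 3 libraries of day 8 did not overlap the 3 of day 4 for 9852 genes tested (75.0%). A lack of overlap noted below is therefore shared with most genes. The split depended on the scaling: 54.1% of calls were higher with TMM, 43.5% when libraries were scaled to their totals (3857 higher, 5011 lower, median -0.09) and 29.7% when they were scaled to TPM (2688 higher, 6361 lower, median -0.32). The 10 most abundant genes took 7.28 to 7.37% of counts at day 8 against 4.10 to 4.15% at day 4. Directions below are relative to the TMM median, and a gene that changes direction under TPM scaling, or a list whose median does, is named as such where its counts are given. Without the day 8 Naloxone library, 4522 genes were higher and 3735 lower.

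The change of a gene also went with its base composition and length. Over 11010 genes, the log2 change correlated with GC content at r = 0.489 and with log2 length at r = -0.338, values across genes that share the same libraries. In the 10% of genes with the lowest GC content the median log2 change was -1.41, with 879 of 1102 genes lower and 66 higher, and in the 10% with the highest it was 0.42, with 629 higher and 144 lower. By length the medians ran from 0.54 in the shortest 10% to -0.64 in the longest. Genes with an effective length over 6 kb took 12.1 to 12.4% of counts in the day 4 libraries and 7.84 to 7.90% in the day 8 libraries. The day 8 Naloxone library went further than the NC library of that day, since its difference from NC correlated with GC content at r = 0.565, against 0.002 for Damgo. The day 2 libraries of Naloxone and Damgo, which enter the spread and the comparison of steps, were also low in long genes (8.44% and 8.96%, against 11.3% in the NC library). The part this trend plays in the changes below was not tested, so the fit was repeated with the trend removed. A value in square brackets after a change is the log2 change from that repeat, printed where it differs by more than 1.5-fold, turns direction or no longer passes the threshold.

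**Figure D1:**
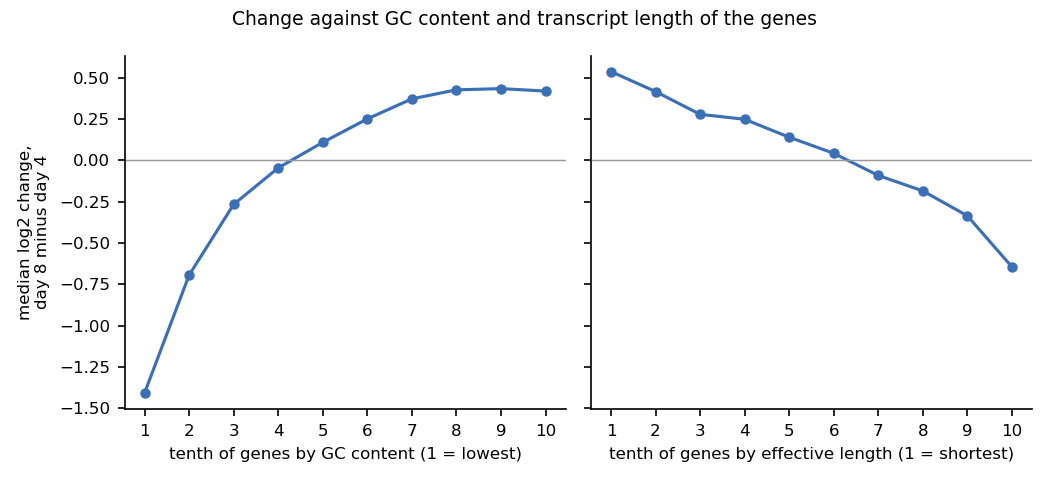
Median log2 change of day 8 minus day 4 (y axis) in 10 equal groups of 11010 genes ordered by GC content (left) and by effective length (right), each point being 1 group. The median rose from -1.41 in the lowest GC group to 0.42 in the highest and fell from 0.54 in the shortest to -0.64 in the longest genes.

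Astrocyte genes rose more often than they fell, and the members did not move together. Gfap, the intermediate filament protein used to identify astrocytes, gave 461, 519 and 551 CPM at day 4 and 8438, 9036 and 8946 CPM at day 8, so that every day 8 library was far above every day 4 library. The fitted change was 4.11 ± 0.20 (adjusted p = 4.4e-07). Apoe, the main lipid carrier of astrocytes, gave 3565, 4024 and 3844 CPM at day 4 and 16638, 15189 and 14777 CPM at day 8, and Clu, another secreted apolipoprotein, gave 277, 273 and 283 CPM at day 4 and 3687, 4117 and 3651 CPM at day 8. The groups did not overlap for either gene, with changes of 2.03 ± 0.09 [1.31] (adjusted p = 2.9e-08) and 3.78 ± 0.13 (adjusted p = 9.2e-09). Slc39a12, a zinc transporter, rose by 2.70 ± 0.10 [3.46], Fam107a, an actin-associated stress gene, by 3.79 ± 0.47, and Gja1, the main gap junction protein of astrocytes, by 0.77 ± 0.08 [1.5]. The fitted change of Fam107a moved to 5.0 without the day 4 NC library, 3.21 without the day 4 Naloxone library and 4.42 without the day 8 NC library. S100b, a calcium-binding protein of astrocytes, rose from 21.4, 18.6 and 19.5 CPM to 51.0, 50.3 and 49.1 CPM (1.33 ± 0.22, adjusted p = 4.2e-04).

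Other defining astrocyte genes fell, rose by less or did not pass the test. Slc1a2, the glutamate transporter that appears late in astrocyte maturation in the brain, gave 568, 579 and 574 CPM at day 4 and 209, 154 and 190.3 CPM at day 8, lower at day 8 in all 3 pairs (-1.65 ± 0.15, adjusted p = 1.3e-05). Its relative Slc1a3, the transporter of radial glia and young astrocytes, gave 2836, 2755 and 2742 CPM at day 4 and 3808, 3146 and 4142 CPM at day 8 and rose by 0.41 ± 0.10 [1.06] (adjusted p = 0.0028), which was 0.01 under TPM scaling. The GABA transporter Slc6a11 fell by a log2 change of -2.0 ± 0.09, from 704, 662 and 641 CPM to 165, 174 and 163 CPM, Mfge8, a secreted bridge to phagocytes, by -1.57 ± 0.08, and Ptprz1, a receptor phosphatase of glia and progenitors, by -2.39 ± 0.27 [-1.09]. Aqp4, the water channel of astrocyte endfeet, gave 394, 427 and 446 CPM at day 4 and 766, 383 and 674 CPM at day 8, so that the NC and Damgo libraries were higher at day 8 and the Naloxone library was not. Its change of 0.44 ± 0.27 [2.03] missed the threshold (adjusted p = 0.19), and without the day 4 Naloxone library it was 0.73 (adjusted p = 0.048). Aldoc, the astrocyte aldolase, was 0.47 ± 0.09 [-0.02] and Sox9, a transcription factor of the glial lineage, was 0.30 ± 0.08, both past the threshold, but under TPM scaling Aldoc was 0.07 and Sox9 -0.09, neither past it. Glul, glutamine synthetase, stood at -0.23 ± 0.09 (adjusted p = 0.044), a call lost without the day 4 NC, Naloxone or Damgo or the day 8 Naloxone or Damgo library (-0.16 to -0.27, adjusted p = 0.062 to 0.2). In all, 22 of 38 astrocyte genes tested rose and 12 fell, beside 37.1% and 31.4% of all genes, and their median log2 change was 0.45 (0.05 under TPM scaling, where the median of all genes was -0.32). The summed level of the 40 genes on the list went from 26755 to 27238 CPM at day 4 to 52652 to 55936 CPM at day 8. Apoe, Gfap and Clu made up 23560 of the 27560 CPM gained on average, and without them the sum went from 22211 to 22451 CPM to 24310 to 27602 CPM.

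**Figure D2:**
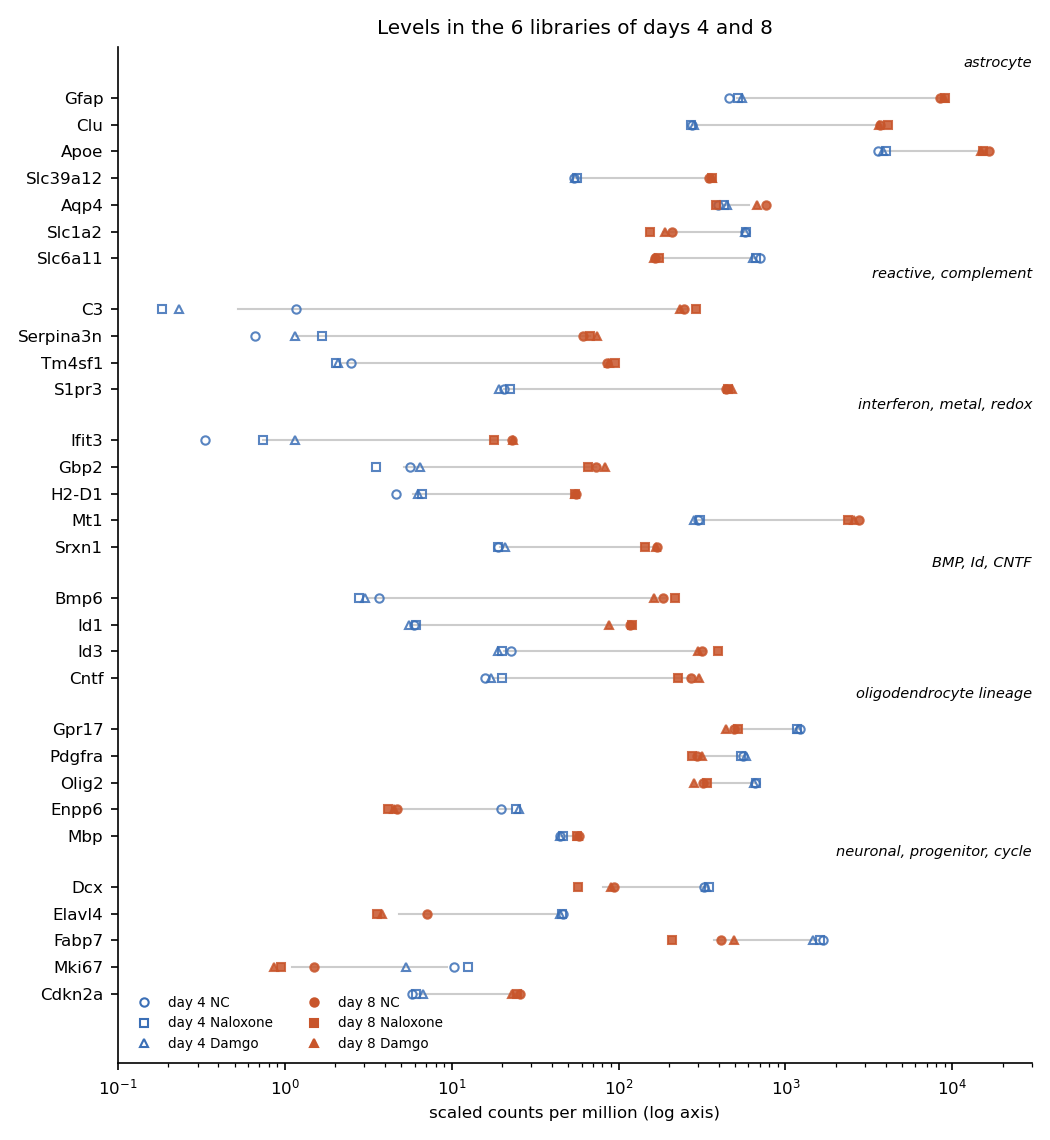
Levels of 30 genes in scaled CPM (log x axis), 1 row per gene, in the 3 day 4 libraries (open blue) and the 3 day 8 libraries (filled orange), with circles for NC, squares for Naloxone and triangles for Damgo and a grey line between the means of the days. The 2 days are separate for every gene shown except Aqp4, whose day 8 Naloxone library lies at 383 CPM among the day 4 libraries.

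Most of the largest rises started near 0 at day 4. C3, the central component of complement, gave 1.16, 0.184 and 0.232 CPM at day 4 and 247, 289 and 233 CPM at day 8, a change of 8.78 ± 0.31 (adjusted p = 2.2e-08) and the largest of any gene named by the rule. Without the NC library of day 4 it was 10.17, and without that of day 8 9.89. Its levels in undifferentiated and day 2 libraries averaged 0.126 and 0.139 CPM. Serpina3n, a protease inhibitor used to mark reactive astrocytes, gave 0.664, 1.66 and 1.16 CPM at day 4 and 61.3, 67.3 and 73.9 CPM at day 8, and Tm4sf1, a membrane protein of the same reactive set, gave 2.49, 2.03 and 2.08 CPM at day 4 and 85.0, 95.7 and 87.3 CPM at day 8. Both were raised in every pair, by 5.85 ± 0.31 and 5.32 ± 0.19. S1pr3, a receptor for sphingosine 1-phosphate, gave 20.6, 22.3 and 19.2 CPM at day 4 and 443, 455 and 477 CPM at day 8 and rose by 4.46 ± 0.12 (adjusted p = 1.6e-09). Aspg, an asparaginase on published lists of reactive astrocyte genes, had 1 count over the day 4 libraries and 452 over the day 8 libraries, a ratio of 365 with a 95% counting interval of 65.2 to 14447. Of 32 tested members of the list of reactive astrocyte and complement genes, 27 rose and 3 fell, with a median log2 change of 3.63 (25 and 3 under TPM scaling, median 3.23). The genes that fell include B3gnt5 (-2.48 ± 0.41 [-1.22]), and 8 of the 40 genes listed were too low to test. The low-count filter kept a gene that was high enough at any stage. C3 and Aspg, near 0 at the other stages, passed it through day 8 alone and could only rise. Such genes raise the count and the median of this list.

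Among the other large rises, Hspb8, a small heat shock protein of chaperone-assisted autophagy, gave 9.95, 8.12 and 8.57 CPM at day 4 and 755, 936 and 715 CPM at day 8 (6.49 ± 0.15, adjusted p = 1.0e-09). Pdlim2, a PDZ and LIM protein of the actin cytoskeleton, rose by 6.72 ± 0.29 [5.97], Cnmd (chondromodulin) by 6.48 ± 0.21, and Fmod (fibromodulin), a collagen-binding proteoglycan, by 6.34 ± 0.25. Ndrg1, a gene known to respond to hypoxia, gave 1.82, 2.03 and 1.16 CPM at day 4 and 105, 109 and 108 CPM at day 8, and Met, the receptor of hepatocyte growth factor, gave 0.829, 0.184 and 0.463 CPM at day 4 and 27.6, 17.8 and 32.3 CPM at day 8. These 2 genes rose by 5.95 ± 0.18 and 5.62 ± 0.29, with no overlap between the days. Tfcp2l1, a transcription factor of naive pluripotent cells and of kidney epithelium, rose by 6.12 ± 0.32, from 0.829, 1.48 and 0 CPM to 52.5, 65.8 and 54.8 CPM, and by 6.75 without the day 4 Naloxone library. For 4 more genes the day 4 counts were too few for a fitted fold to be read: Cd59a, an inhibitor of the complement attack complex, had 1 count against 311 (ratio 251, 44.7 to 9950), Hdc, histidine decarboxylase, 3 against 404 (ratio 109, 36.9 to 529), Capn3, a calpain, 2 against 290 (ratio 117, 32.1 to 971), and Slc6a19, an amino acid transporter, 2 against 217 (ratio 87.6, 24.0 to 728). These intervals cover counting error only.

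Interferon response and MHC class I genes rose with few exceptions. Interferon-stimulated genes carry antiviral and antigen-presenting functions, and their promoters are known to hold an interferon-stimulated response element, a pair of GAAA half-sites. Of 28 members tested, 26 rose and none fell, with a median log2 change of 2.17 (24 and 0 under TPM scaling, median 1.78), and 6 of the 34 genes listed were too low to test. Any member that passed the low-count filter through day 8 alone could only rise. Ifit3, an interferon-induced inhibitor of viral translation, gave 0.332, 0.738 and 1.16 CPM at day 4 and 23.1, 18.0 and 23.2 CPM at day 8 (4.88 ± 0.39, adjusted p = 1.9e-06). Gbp2, a guanylate-binding protein, gave 5.64, 3.51 and 6.48 CPM at day 4 and 73.0, 65.2 and 82.8 CPM at day 8, and H2-D1, a classical MHC class I heavy chain, gave 4.64, 6.64 and 6.25 CPM at day 4 and 55.5, 55.2 and 55.2 CPM at day 8. The day 8 libraries of both genes lie close together and above all day 4 libraries, with changes of 3.84 ± 0.14 and 3.25 ± 0.14. Ifitm3, a membrane restriction factor, rose by 3.24 ± 0.21 [2.56]. H2-D1 has close relatives among class I genes, so its count depends on how shared reads were divided.

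The 250 bases before the start of 4 members of that list are shown because their promoters hold the GAAA pair (letters GAAANNGAAA, searched on both strands, the reverse complement reading TTTCNNTTTC, with the match in capitals). They are RefSeq sequences of GRCm38.p6 on the gene's strand, 5′ to 3′. Ifit3 (chr19:34583279-34583528, plus strand) has 2 matches, and Gbp2 (chr3:142620413-142620662, plus strand), B2m (chr2:122147437-122147686, plus strand) and H2-T23 (chr17:36032702-36032951, minus strand) have 1 each.
Ifit3: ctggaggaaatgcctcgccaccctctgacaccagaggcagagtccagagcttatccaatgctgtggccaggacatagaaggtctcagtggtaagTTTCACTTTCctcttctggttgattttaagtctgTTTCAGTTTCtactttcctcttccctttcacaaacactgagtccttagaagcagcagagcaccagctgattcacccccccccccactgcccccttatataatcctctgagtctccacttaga
Gbp2: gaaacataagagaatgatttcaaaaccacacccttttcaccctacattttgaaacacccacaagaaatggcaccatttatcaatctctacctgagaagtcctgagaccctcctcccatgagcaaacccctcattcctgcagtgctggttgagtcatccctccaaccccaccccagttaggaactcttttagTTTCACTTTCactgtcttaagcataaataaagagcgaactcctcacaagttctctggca
B2m: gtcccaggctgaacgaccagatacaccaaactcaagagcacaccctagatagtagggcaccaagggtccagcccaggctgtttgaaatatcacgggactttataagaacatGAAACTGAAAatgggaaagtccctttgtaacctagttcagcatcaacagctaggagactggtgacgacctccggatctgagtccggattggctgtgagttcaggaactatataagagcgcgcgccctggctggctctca
H2-T23: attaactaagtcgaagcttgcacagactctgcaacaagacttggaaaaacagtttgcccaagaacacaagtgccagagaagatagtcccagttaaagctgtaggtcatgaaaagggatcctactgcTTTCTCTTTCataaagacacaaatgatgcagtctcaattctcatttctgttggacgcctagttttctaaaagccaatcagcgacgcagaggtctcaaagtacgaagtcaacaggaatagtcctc

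The matches lie 156 to 147 and 122 to 113 bases before the start in Ifit3, 59 to 50 in Gbp2, 139 to 130 in B2m and 124 to 115 in H2-T23. B2m, the light chain of MHC class I, rose from 27.4 ± 2.68 CPM to 118 ± 30.1 CPM (SD, n = 3), and H2-T23, a nonclassical class I gene, from 1.6 ± 0.260 to 4.68 ± 0.766 CPM. These 2 genes were chosen for their promoter after their values were seen. Over all 32851 RefSeq promoters searched, 978 (2.98%) held the letters within 250 bases, and of 12924 promoters of the genes tested 302 (2.34%) did. Among the 27 promoters of the 22 tested list members found there, 9 (33.3%) held them. A match is a description of the letters and not a measured binding site.

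Nearly all metallothionein and antioxidant genes rose. Metallothioneins bind zinc and copper, and the transcription factor NRF2 drives glutathione and thioredoxin genes through the antioxidant response element. Mt1 gave 299, 306 and 282 CPM at day 4 and 2742, 2357 and 2582 CPM at day 8 and Mt2 gave 148, 156 and 136 CPM at day 4 and 934, 783 and 870.2 CPM at day 8, with changes of 3.11 ± 0.14 [2.27] (adjusted p = 8.8e-08) and 2.56 ± 0.15 [1.72] (adjusted p = 6.3e-07). Prdx6, a peroxiredoxin that reduces phospholipid peroxides, gave 699, 718 and 729.6 CPM at day 4 and 4269, 4479 and 4441 CPM at day 8, and Srxn1, sulfiredoxin, gave 18.9, 18.8 and 20.8 CPM at day 4 and 169, 145 and 168 CPM at day 8. For all 4 genes each day 8 library was above each day 4 library, and Prdx6 and Srxn1 rose by 2.62 ± 0.08 and 3.04 ± 0.12. Of 25 genes of the list tested, 24 rose and none fell, with a median of 1.47 (23 and 0 under TPM scaling, median 1.07).

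Promoters of 2 members of that list are shown for the antioxidant response element core (letters TGACNNNGC, reverse complement GCNNNGTCA, both strands searched, match in capitals). Txnrd1 (chr10:82858956-82859205, plus strand) encodes thioredoxin reductase 1 in the cytosol, and Sod1 (chr16:90220512-90220761, plus strand) encodes the copper and zinc superoxide dismutase. Both were chosen for their match after their values were seen.
Txnrd1: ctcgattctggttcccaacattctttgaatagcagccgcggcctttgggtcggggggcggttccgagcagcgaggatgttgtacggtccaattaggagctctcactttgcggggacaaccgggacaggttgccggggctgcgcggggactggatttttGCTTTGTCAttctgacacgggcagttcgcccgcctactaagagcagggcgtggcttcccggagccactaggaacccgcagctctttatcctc
Sod1: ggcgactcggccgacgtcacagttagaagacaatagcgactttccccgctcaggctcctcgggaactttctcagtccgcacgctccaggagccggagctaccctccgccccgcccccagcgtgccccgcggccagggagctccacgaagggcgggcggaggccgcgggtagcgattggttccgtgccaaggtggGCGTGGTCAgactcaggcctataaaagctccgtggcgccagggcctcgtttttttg

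The match lies 92 to 84 bases before the start in Txnrd1 and 56 to 48 in Sod1. Txnrd1 went from 224 ± 2.10 CPM to 354 ± 12.8 CPM and Sod1 from 135 ± 5.08 CPM to 325 ± 17.3 CPM (SD, n = 3). The letters were in 7 of 26 promoters of the list (26.9%), in 11.4% of promoters of the genes tested and in 10.2% of all promoters. The letters GAAANNGAAA were in 0 of those 26. A pair of other motifs was searched on both strands. The metal response element core (letters TGCNCNC) was in 53.8% of promoters of the antioxidant list, in 53.4% of promoters of the genes tested and in 44.4% of all promoters. The STAT palindrome (letters TTCNNNGAA) was in 17.6% of promoters of the reactive list, 15.4% of the antioxidant list, 14.8% of the interferon list and 14% of the astrocyte list, against 5.83% for the genes tested and 7.02% of all promoters.

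BMP signalling is read out in part through the Id genes, which encode partners that hold back proneural transcription factors. Bmp6, a ligand, gave 3.65, 2.77 and 3.01 CPM at day 4 and 184, 219 and 164 CPM at day 8 and rose by 5.89 ± 0.18 (adjusted p = 2.2e-08), from a mean of 0.0483 CPM at day 2. Id1 gave 5.97, 6.09 and 5.56 CPM at day 4 and 116, 120.2 and 87.6 CPM at day 8, Id3 gave 22.6, 19.9 and 19 CPM at day 4 and 314, 393 and 299 CPM at day 8, and Id4 rose by 1.83 ± 0.11 [2.60]. The changes of Id1 and Id3 were 4.19 ± 0.12 [3.46] and 4.02 ± 0.12 [3.36], and for both the day 4 mean was the lowest of the 4 stages, as the plot of levels by stage shows for Id3. Smad9, a receptor-regulated SMAD of this pathway, rose by 3.37 ± 0.22. The BMP antagonist Nog fell by a log2 change of -0.64 ± 0.21 (adjusted p = 0.019), a call lost without the day 4 NC or Damgo or the day 8 NC or Damgo library (-0.45 to -0.64, adjusted p = 0.057 to 0.11). The type II receptor Bmpr2 fell (-2.40 ± 0.38 [-0.02]) and so did the type I receptor Bmpr1a (-0.58 ± 0.19 [0.23]) with TMM scaling, but neither fell with the GC and length trend removed. The call for Bmpr1a was also lost without the day 4 Naloxone or Damgo or the day 8 NC or Naloxone library (-0.47 to -0.55, adjusted p = 0.076 to 0.11). Over the 23 tested members of the BMP list 10 rose (43.5%) and 9 fell (39.1%), beside 37.1% and 31.4% of all genes. The list median of 0.14 turned to -0.26 under TPM scaling.

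The cytokines that act through gp130 and STAT3 are the other known inducers of astrocyte genes. Cntf, ciliary neurotrophic factor, gave 15.8, 20.1 and 17.1 CPM at day 4 and 272, 226 and 304 CPM at day 8 (3.91 ± 0.13, adjusted p = 5.1e-09), well apart between the days. Among receptors, Osmr (oncostatin M receptor) rose by 2.36 ± 0.19 [3.12] and Il6st (gp130) by 1.25 ± 0.07 [1.91], while Cntfr, the receptor subunit that binds Cntf, fell by a log2 change of -0.59 ± 0.09 and Lifr by -0.94 ± 0.19 [-0.07]. Socs3, a feedback inhibitor and known STAT3 target, rose by 1.65 ± 0.14. Of 13 genes tested in this list 8 rose and 3 fell. Among other glial transcription regulators, Atf3, a stress-induced factor, rose by 5.26 ± 0.30 and Hopx, a homeodomain-only protein of quiescent progenitors and astrocytes, by 2.22 ± 0.12. Nfib fell by a log2 change of -2.26 ± 0.34 [-1.37] and Nfia by -0.49 ± 0.18 [0.76], the latter turning direction with the trend removed. The call for Nfia as lower was lost without the day 4 Naloxone or Damgo or the day 8 NC, Naloxone or Damgo library (-0.34 to -0.56, adjusted p = 0.051 to 0.15). On the list of glial transcription factors 7 of 21 rose and 7 fell (33.3% each), near the 37.1% and 31.4% of all genes. Under TPM scaling 6 rose and 12 fell, and the median turned from 0.05 to -0.35.

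**Figure D3:**
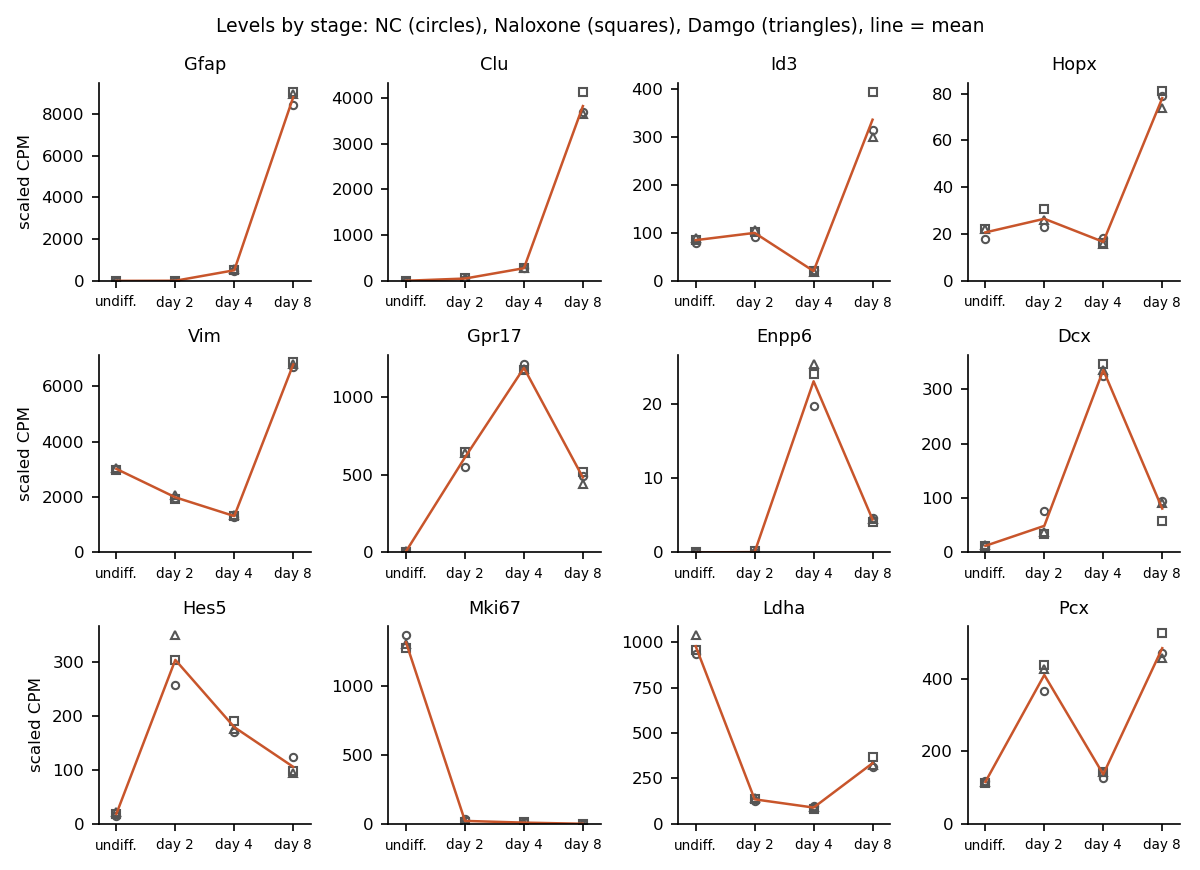
Levels of 12 genes in scaled CPM (y axis, from 0) at the 4 stages, with 1 symbol per library (circles NC, squares Naloxone, triangles Damgo) and a line through the means. In CPM, Gfap and Clu rose mostly between days 4 and 8, although the log2 change of Gfap was larger from day 2 to day 4. Id3, Hopx and Vim were lowest at day 4 among the differentiating stages, and Gpr17, Enpp6 and Dcx peaked at day 4.

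Intermediate filaments and tubulins gave a median log2 change of 1.02, with 12 of 20 higher and 4 lower (10 and 7 under TPM scaling, median 0.63). Vim, vimentin, gave 1292, 1306 and 1342 CPM at day 4 and 6688, 6875 and 6816 CPM at day 8 and rose by 2.37 ± 0.06 (adjusted p = 1.6e-09). Tubb6 and Tuba4a, tubulin isotypes, rose by 2.57 ± 0.15 and 2.25 ± 0.23 [1.65]. Lmnb1, the nuclear lamin B1 known to be lost in senescent cells, fell by a log2 change of -1.08 ± 0.07.

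Oligodendrocyte lineage genes were lower at day 8 from the precursor to the committed stage. Gpr17, an orphan receptor that marks committed precursors, gave 1216, 1174 and 1181 CPM at day 4 and 490.2, 518 and 441 CPM at day 8 (-1.30 ± 0.10, adjusted p = 1.3e-06). Pdgfra, the growth factor receptor of dividing precursors, gave 554, 541 and 582 CPM at day 4 and 294, 274 and 315 CPM at day 8, and Olig2, the transcription factor of the lineage, gave 654, 667 and 647 CPM at day 4 and 321, 337 and 281 CPM at day 8. The 2 days did not overlap for any of the 3 genes, and Pdgfra and Olig2 fell by log2 changes of -0.93 ± 0.07 [-0.22] and -1.07 ± 0.07. Olig1 (-0.85 ± 0.07), Sox10 (-0.78 ± 0.11), Nkx2-2 (-1.82 ± 0.16) and Sox6 (-1.53 ± 0.10 [-0.63]), the other regulators of the lineage named by the rule, fell as well. Vcan, a proteoglycan of precursors, and Pcdh15, a protocadherin, fell by log2 changes of -3.19 ± 0.41 [-1.98] and -2.73 ± 0.36 [-2.0]. Of 22 precursor genes tested 14 fell and 4 rose, with a median of -0.85 (19 and 2 under TPM scaling, 17 and 3 with the trend removed). Of the genes that rose, Matn4 rose by 2.26 ± 0.25 and C1ql1 by 0.98 ± 0.15.

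Later markers of the lineage were mixed. Enpp6, the choline phosphodiesterase of newly formed oligodendrocytes, gave 19.7, 24.2 and 25.5 CPM at day 4 and 4.70, 4.14 and 4.51 CPM at day 8 (-2.38 ± 0.21, adjusted p = 1.6e-05), so that every day 8 library was under every day 4 library. Ugt8a, which makes galactocerebroside, fell by a log2 change of -1.98 ± 0.18 [-0.43] and Myrf, the myelin regulatory factor, by -0.89 ± 0.17. Mbp, myelin basic protein, gave 44.6, 46.7 and 44.7 CPM at day 4 and 57.5, 56.4 and 57.1 CPM at day 8, a rise of 0.33 ± 0.13 [-0.08] (adjusted p = 0.042), and Cnp, a myelin enzyme, rose by 0.41 ± 0.07 [0.02]. Those 2 rises depended on the scaling, because Mbp was -0.07 and Cnp 0.01 under TPM scaling and neither passed the threshold there. The call for Mbp was also lost without the day 4 NC, Naloxone or Damgo or the day 8 NC or Damgo library (0.27 to 0.37, adjusted p = 0.085 to 0.17). Of 23 tested genes of differentiating and myelinating oligodendrocytes 10 fell and 7 rose (13 and 4 under TPM scaling, 10 and 4 with the trend removed), with a median of -0.45. The summed level of the list of 30 changed little, from 1696 to 1742 CPM at day 4 to 1516 to 1627 CPM at day 8.

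Neuronal genes were more often lower than higher at day 8. Dcx, the microtubule protein of immature neurons, gave 323, 347 and 335 CPM at day 4 and 94.4, 57.3 and 90.0 CPM at day 8 (-2.10 ± 0.25 [-0.48], adjusted p = 1.9e-04), with the Naloxone library lowest of the 6. The RNA-binding proteins Elavl4 and Elavl2 fell by log2 changes of -3.30 ± 0.40 [-1.92] and -2.72 ± 0.43 and the dendritic microtubule protein Map2 by -2.25 ± 0.28 [-1.64]. Tubb3 gave 108, 110.1 and 106 CPM at day 4 and 109.6, 114 and 96.3 CPM at day 8 and Rbfox3, the antigen NeuN of mature neurons, gave 10.5, 13.7 and 14.4 CPM at day 4 and 10.9, 13.4 and 13.9 CPM at day 8, and neither passed the test. The days overlapped for both, and under TPM scaling both fell, by log2 changes of -0.42 and -0.40. Dpysl5, a collapsin response mediator, rose by 1.49 ± 0.09 and Gap43, a growth cone protein, by 0.77 ± 0.12. The highest change of any tested member was 3.88, in a gene not named here. In all, 16 of 34 neuronal genes tested fell and 5 rose, with a median of -0.53 (23 and 3 under TPM scaling), and the summed level of the 44 listed genes went from 6107 to 6246 CPM to 2851 to 3118 CPM. Without Map2, Sox4 and Dpysl3, which moved that sum most, it went from 2149 to 2279 CPM to 1553 to 1619 CPM.

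Glutamate and GABA receptors, which progenitors and glia as well as neurons express, were lower too. Gria2, the AMPA receptor subunit that sets calcium permeability, gave 301, 442 and 293 CPM at day 4 and 54.1, 20.7 and 39.0 CPM at day 8 (-3.30 ± 0.47 [-2.04], adjusted p = 4.6e-04). Gria3 and Gria4 fell by log2 changes of -2.69 ± 0.42 [-1.51] and -2.01 ± 0.31 [-0.88], and Grm5, the metabotropic receptor of young astrocytes, by -1.77 ± 0.38 [-0.98]. Of 24 receptors tested 15 fell and 4 rose, with a median of -1.01, and with the trend removed 12 fell and 7 rose, with a median of -0.28.

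Stem and progenitor genes fell in 16 of 22 tested and rose in 5. Fabp7, the fatty acid binding protein of radial glia, gave 1685, 1615 and 1470 CPM at day 4 and 412, 209 and 495 CPM at day 8 (-2.13 ± 0.28 [-1.52], adjusted p = 2.9e-04), the Naloxone library again being the lowest of day 8. The RNA-binding protein Msi2 fell by a log2 change of -1.90 ± 0.26, the matrix protein Tnc by -1.90 ± 0.12, the growth factor receptor Egfr by -1.31 ± 0.14 and Sox2 by -0.34 ± 0.06. Nes, nestin, rose by 0.54 ± 0.12, which was 0.14 under TPM scaling, and Prom1 and Cd9, surface proteins of neural stem cells that other glia share, rose by 1.17 ± 0.12 [1.78] and 1.32 ± 0.07.

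Genes of G2 and M phase, already low at day 4, were mostly lower at day 8. Mki67, the proliferation antigen, averaged 1316 CPM in undifferentiated cells and gave 10.3, 12.5 and 5.33 CPM at day 4 and 1.5, 0.947 and 0.867 CPM at day 8 (-3.10 ± 0.55 [-2.04], adjusted p = 0.0013). Top2a, Kif11 and Ccna2, a topoisomerase, a spindle motor and a cyclin of dividing cells, fell by log2 changes of -2.23 ± 0.28 [-1.29], -2.06 ± 0.45 [-0.68] and -1.38 ± 0.14. Of 30 G2 and M phase genes 21 fell and 1 rose, with a median of -1.33, while of 30 S phase genes 10 fell and 6 rose, a share of falls near the 31.4% of all genes. Those that rose include the DNA clamp Pcna (0.45 ± 0.12 [1.26]) and the ribonucleotide reductase subunit Rrm2 (0.53 ± 0.15), and under TPM scaling, where they were 0.05 and 0.14, 16 S phase genes fell and 1 rose. Ccnd1, cyclin D1, gave 45.0, 39.1 and 35.2 CPM at day 4 and 39.9, 36.4 and 36.4 CPM at day 8, and its change of -0.08 ± 0.08 did not pass the test, while -0.48 under TPM scaling did. Inhibitors of cyclin-dependent kinases moved in different directions. Cdkn2a gave 5.81, 6.09 and 6.72 CPM at day 4 and 25.6, 24.5 and 22.9 CPM at day 8 (1.97 ± 0.14 [1.22]), Cdkn1a gave 12.3, 15.5 and 14.1 CPM at day 4 and 41.4, 42.5 and 44.2 CPM at day 8 (1.61 ± 0.09) and Cdkn2b rose by 1.58 ± 0.14 [0.95], whereas Cdkn1c fell by a log2 change of -1.58 ± 0.17. Cdkn2a is known to give overlapping transcripts for 2 proteins, which a count per gene does not separate.

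Genes of mitochondrial energy metabolism rose across its parts. Of 80 nuclear genes of oxidative phosphorylation tested 75 rose and none fell, with a median of 0.98 (67 and 2 under TPM scaling, median 0.59). With the GC and length trend removed 64 rose and 2 fell, with a median of 0.51. Sdhc, a subunit of complex II, gave 115, 125 and 111 CPM at day 4 and 303, 308 and 311 CPM at day 8, and Atp5g3, a ring subunit of ATP synthase, gave 162, 149 and 146 CPM at day 4 and 414, 392 and 439 CPM at day 8. These rose by 1.39 ± 0.07 and 1.44 ± 0.11, both without overlap, and Uqcr10 and Uqcr11, small subunits of complex III, by 1.45 ± 0.17 [0.66] and 1.37 ± 0.12 [0.52]. In the tricarboxylic acid cycle 16 of 17 genes rose and none fell (median 0.92), against 14 and 1 under TPM scaling (median 0.52). Idh2, the mitochondrial isocitrate dehydrogenase that yields NADPH, gave 103, 94.8 and 109 CPM at day 4 and 543, 567 and 525 CPM at day 8 (2.42 ± 0.07, adjusted p = 2.9e-09), and Pcx, the pyruvate carboxylase of astrocytes, gave 125, 143 and 142 CPM at day 4 and 471, 524 and 456 CPM at day 8 (1.83 ± 0.08). Of 28 fatty acid oxidation and PPAR target genes 24 rose and none fell (median 0.94), against 20 and 2 under TPM scaling (median 0.55). The lipid droplet protein Plin2 (1.64 ± 0.14) and the carnitine enzyme Cpt2 (1.46 ± 0.11) were among those that rose.

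Glycolytic genes rose beside them. Ldha, lactate dehydrogenase A, gave 96.9, 81.4 and 91.9 CPM at day 4 and 311, 369 and 322 CPM at day 8 (1.89 ± 0.09, adjusted p = 6.0e-08) after a mean of 978 CPM in undifferentiated cells. Pfkp, a phosphofructokinase, gave 12.1, 13.5 and 11.8 CPM at day 4 and 169, 194 and 190.3 CPM at day 8, and Slc16a1, the lactate carrier MCT1, gave 54.9, 49.3 and 53.5 CPM at day 4 and 403, 439.9 and 448 CPM at day 8. Both rose in every pair, by 3.88 ± 0.11 and 3.03 ± 0.08 [4.24], and Tpi1, triosephosphate isomerase, rose by 2.23 ± 0.11. Of 36 genes of glycolysis and of the hypoxia factor HIF 25 rose and 5 fell (median 0.83), against 21 and 9 under TPM scaling (median 0.44). Those that fell include Vegfa, a classical HIF target, at -1.24 ± 0.17 (adjusted p = 1.1e-04), and Hif1a itself at -1.37 ± 0.22 [0.11]. In glycogen metabolism 12 of 14 rose and none fell, against 8 and 1 under TPM scaling. Phkg1, a phosphorylase kinase subunit (1.82 ± 0.20), and Gys1, glycogen synthase (1.2 ± 0.08), were among those that rose.

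Lysosomal and lipid carrier genes rose, and sterol synthesis did not. Of 30 lysosome and autophagy genes 29 rose and none fell, with a median of 0.94 (21 and 1 under TPM scaling). The cathepsins Ctsb and Ctsd gave 353, 342 and 315 CPM at day 4 and 1153, 1135 and 1197 CPM at day 8 and 306, 311 and 308 CPM at day 4 and 1003, 1147 and 1010 CPM at day 8, changes of 1.79 ± 0.07 and 1.77 ± 0.07. Cd63, a membrane protein of late endosomes, rose by 1.88 ± 0.08 [1.24] and Tfeb, the transcription factor of lysosomal genes, by 1.58 ± 0.13. Among 16 lipoprotein and cholesterol export genes 11 rose and 2 fell, and beside Apoe and Clu the phospholipid transfer protein Pltp (3.19 ± 0.12) and the acyltransferase Lcat (2.42 ± 0.27 [1.80]) rose. Lss, lanosterol synthase, gave 369.6, 371 and 374 CPM at day 4 and 119, 90.9 and 117 CPM at day 8 and fell by a log2 change of -1.77 ± 0.10 (adjusted p = 1.7e-07). The fatty acid elongase Elovl6 fell by a log2 change of -2.41 ± 0.29 [-1.2]. Of 29 sterol and fatty acid synthesis genes 15 fell and 5 rose (median -0.27), but with the GC and length trend removed 10 fell and 8 rose (median -0.07).

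**Figure D4:**
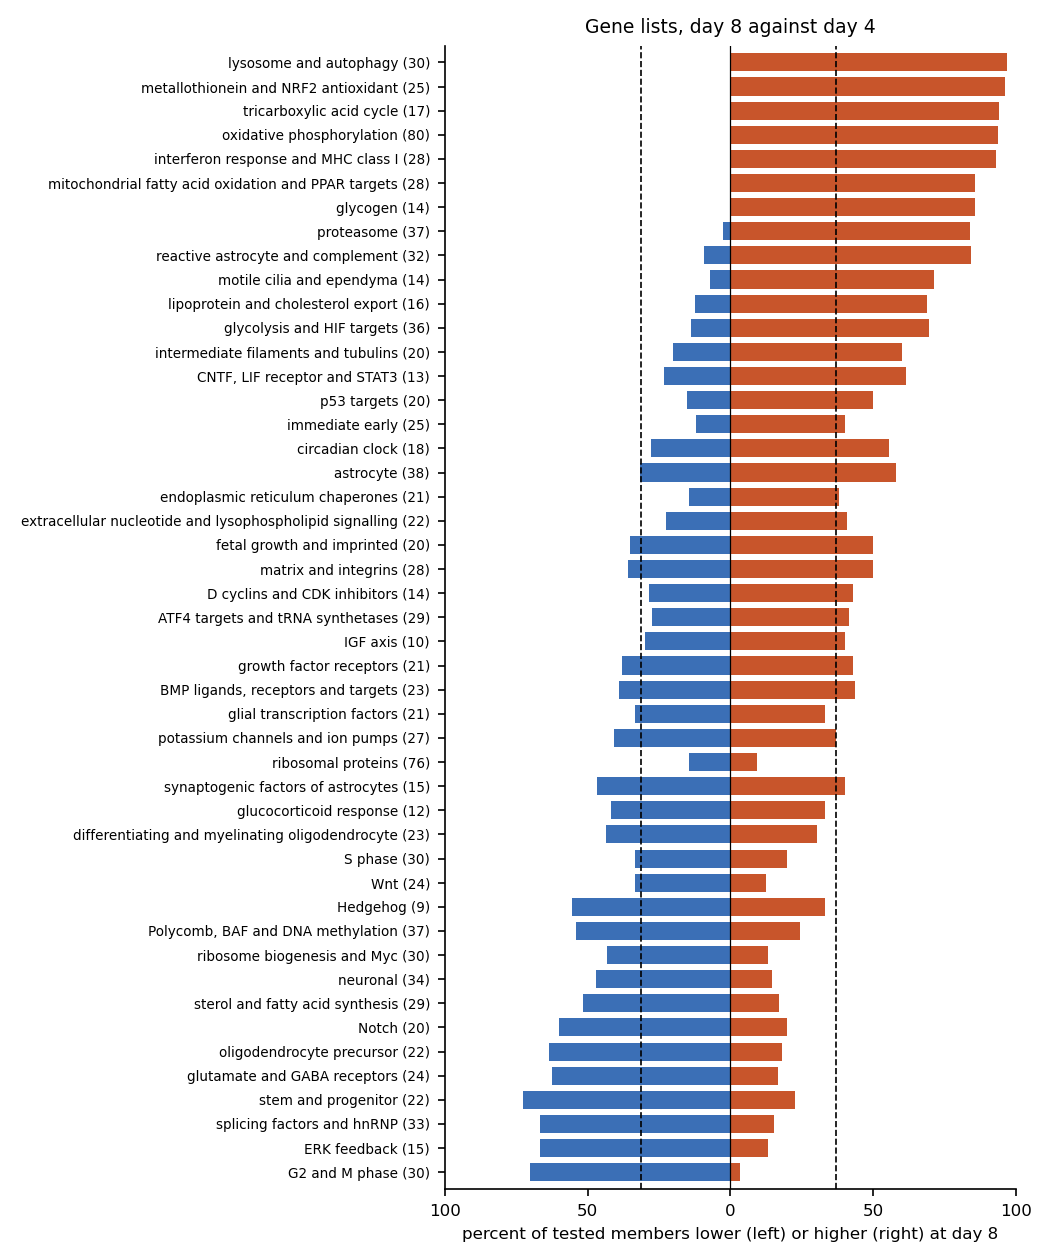
Percent of the tested members of each list with at least 9 tested genes (number in brackets) that were called higher (orange, to the right) or lower (blue, to the left) at day 8, with dashed lines at the 37.1% and 31.4% of all genes. Lysosome, antioxidant, mitochondrial and interferon lists are almost wholly higher, and G2 and M phase, splicing, glutamate receptor and oligodendrocyte precursor lists are mostly lower.

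Protein turnover and protein synthesis genes differed, and both depended on the scaling. Of 37 proteasome genes 31 rose and 1 fell (median 0.58), but 15 rose and 3 fell under TPM scaling (median 0.18), and Psmb10, a subunit of the immunoproteasome, rose by 1.78 ± 0.21 [1.12]. Of 76 ribosomal protein genes tested 7 rose, 11 fell and 58 did not pass, with a median of -0.05 close to the 0.07 of all genes. Under TPM scaling 67 of them fell (median -0.45) and with the trend removed 69 fell (median -0.61). Their counts also depend on how reads shared with pseudogenes were divided. Nop58 and Ncl, nucleolar proteins of ribosome assembly, fell by log2 changes of -2.48 ± 0.34 [-1.76] and -2.01 ± 0.30, within a list of 30 of which 13 fell and 4 rose.

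The largest falls named by the rule started from day 4 means of 9.87 CPM (Dmrta1) to 345 CPM (Jmjd1c). Lipg, endothelial lipase, gave 33.2, 28.6 and 24.3 CPM at day 4 and 0.752, 0.711 and 1.56 CPM at day 8 (-4.84 ± 0.30, adjusted p = 2.5e-07), after a mean of 26.8 CPM at day 2. Dmrta1, a transcription factor of dorsal progenitors, gave 10.1, 9.78 and 9.73 CPM at day 4 and 0.376, 0.237 and 0.173 CPM at day 8 (-5.14 ± 0.47 [-4.53]), and Sv2c, a synaptic vesicle protein, gave 22.4, 19.4 and 21.5 CPM at day 4 and 2.07, 1.18 and 1.73 CPM at day 8 (-3.69 ± 0.22). In these 3 genes every day 8 library was under every day 4 library. Bche, butyrylcholinesterase, fell by a log2 change of -4.98 ± 0.89 [-3.68] and Sema3d, a secreted guidance protein, by -3.90 ± 0.38 [-1.79]. Of the rest named by the rule, Jmjd1c, Lcorl, Pcdh11x, Lrrtm2, Calcrl, Dgkb, Kitl, Rbm41, Casp8ap2 and Zfp81 fell by log2 changes of -3.47 ± 0.56 to -3.82 ± 0.42, and the GC content of these 10 genes was 37.5 to 45.0%, against a median of 50.5% over all genes tested. With the trend removed their changes were -2.59 to -1.05 and all passed the test. In all 10 the day 8 Naloxone library was the lowest of the 6. Genes with predicted names were passed over for this list and not named.

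RNA-processing and chromatin genes were mostly lower. Of 33 splicing factors and hnRNPs 22 fell and 5 rose (median -0.56), with Hnrnph1 at -2.22 ± 0.23 [-1.43], Hnrnpa3 at -2.18 ± 0.25 [-1.44] and Ptbp2, the neuronal splicing repressor, at -1.75 ± 0.12 [-0.30]. Ptbp1, which keeps neuronal exons out in glia and progenitors, gave 133, 136 and 142 CPM at day 4 and 236, 304 and 244 CPM at day 8 and rose by 0.93 ± 0.08 (adjusted p = 3.4e-06). Sf3b1, a core U2 component, fell by a log2 change of -1.84 ± 0.24 [0.02]. Of 37 Polycomb, BAF and DNA methylation genes 20 fell and 9 rose (median -0.24), among them Tet1 (-2.48 ± 0.37 [-1.37]), Tet2 (-2.42 ± 0.38 [-1.2]), Suz12 (-2.49 ± 0.40 [-0.50]) and Mtf2 (-2.63 ± 0.44 [-1.73]). Among 351 tested genes with the prefix Zfp, a class chosen after its values were seen, 237 fell and 23 rose (median -0.97), and their median GC content was 46.2%.

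Genes of the Notch, Hedgehog and ERK pathways were lower more often than higher. In the Notch pathway, which holds progenitors undifferentiated through Hes genes, 12 of 20 genes fell and 4 rose. Dll3, a ligand of committed precursors, gave 116, 119.5 and 110.0 CPM at day 4 and 27.1, 29.4 and 25.5 CPM at day 8 (-2.08 ± 0.09, adjusted p = 2.6e-08). Hes5, a Notch target, fell by a log2 change of -0.76 ± 0.15 and Nrarp, a feedback regulator, by -1.62 ± 0.10, while Hey1 rose by 0.97 ± 0.09 and Hes1 by 0.83 ± 0.18 [0.21]. In Hedgehog signalling 5 of 9 genes fell and 3 rose. Ptch1, a target gene, fell by a log2 change of -1.30 ± 0.06 and Gli2, a transcription factor of the pathway, by -1.79 ± 0.11. The transducer Smo rose by 1.2 ± 0.08. Among 15 feedback genes of the ERK pathway 10 fell and 2 rose, Etv1 by -2.50 ± 0.17. The growth factor receptor Erbb4 fell by a log2 change of -2.89 ± 0.37 [-1.39] and Erbb2 rose by 1.16 ± 0.11.

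Ion handling changed in named members and not as a list. Atp1b1, a subunit of the sodium pump, gave 91.9, 93.3 and 98.2 CPM at day 4 and 579, 528 and 619 CPM at day 8. It rose by 2.61 ± 0.08, and Fxyd1, a regulator of the pump, and Kcnk1, a leak potassium channel, by 3.56 ± 0.12 [2.72] and 3.0 ± 0.14. The voltage-gated channels Kcnd2 and Kcna2 fell by log2 changes of -2.32 ± 0.19 [-1.25] and -1.77 ± 0.32 [-1.18]. Over 27 genes tested 10 rose and 11 fell, against 7 and 15 under TPM scaling, where the median turned from 0.13 to -0.27.

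The change from day 4 to day 8 was also set against the change from day 2 to day 4, by a contrast of the 2 steps in the same fit. It passed the threshold for 8243 genes (62.7%), 4394 with the later step above the earlier (33.4%) and 3849 below (29.3%). Both steps use the day 4 libraries, so a gene that was high or low in those libraries alone moves the contrast. Emp1, an epithelial membrane protein, averaged 14.7 CPM at day 2 and gave 2.99, 1.84 and 2.32 CPM at day 4 and 42.1, 42.7 and 43.2 CPM at day 8, a difference between steps of 6.74 ± 0.37 (adjusted p = 6.9e-07). Enpp6 averaged 23.1 CPM at day 4 and 4.45 CPM at day 8, but gave only 0, 0.126 and 0 CPM at day 2 (mean 0.0421). Its contrast passed the threshold (adjusted p = 1.6e-06). With so few day 2 counts the size of the fitted difference, -10.74 ± 0.52, cannot be read. Sema3d, Epha3, an ephrin receptor, and Mybl1, a MYB family factor, were highest at day 4 among the differentiating stages too, with differences of -7.76 ± 0.60, -7.04 ± 0.63 and -6.97 ± 0.65. Gpr17 (-2.26 ± 0.16) and Dcx (-4.94 ± 0.41) were of this kind. With the GC and length trend removed, the change from day 4 to day 8 was -1.79 for Sema3d, -1.66 for Epha3 and -1.66 for Mybl1. It was -1.21 for Gpr17 and -0.48 for Dcx. The contrasts of these genes with the trend removed are not given here, and the part the trend plays in their day 4 peak was not tested. Gfap, at 7.93 CPM on average at day 2, changed by less in the later step (-1.90 ± 0.33, adjusted p = 0.0013), while Apoe (1.73 ± 0.16), Clu (1.36 ± 0.22) and Ldha (2.47 ± 0.17) changed by more in the later one. For Bmp6 (0.37 ± 3.82, adjusted p = 0.95) and Slc1a3 (0.28 ± 0.17, adjusted p = 0.16) the contrast did not pass the test. Bmp6 averaged only 0.0483 CPM at day 2, so its contrast cannot tell whether the 2 steps differed.

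Markers of other cell types were measured beside these groups. Of 15 microglia and macrophage genes 13 were under 1 CPM in all 6 libraries, and C1qa, C1qb, C1qc and Cx3cr1 had no count on either day, where 3 counts in a library equal 0.355 to 0.695 CPM. Of 12 endothelial genes, whose sum went from 6.64 to 7.64 CPM to 19.6 to 28.9 CPM, Cldn5 and Cdh5 had no count, and the rise lay in Kdr, the VEGF receptor 2, which gave 3.65, 2.95 and 3.24 CPM at day 4 and 16.5, 24.2 and 21.2 CPM at day 8 (2.64 ± 0.21). Motile cilia and ependymal genes rose in 10 of 14 tested and fell in 1 (median 1.6), with 15 of the 29 listed too low to test. Any member that passed the low-count filter through day 8 alone could only rise. The sum of the list went from 96.3 to 98.6 CPM to 320.1 to 403.9 CPM. Without Foxj1, the transcription factor of motile cilia, it went from 48.9 to 55.2 CPM to 120.1 to 151.7 CPM. Dnah6, an axonemal dynein, rose by 2.52 ± 0.33 [3.65] and Cfap126 by 3.35 ± 0.31 [2.75], both at low levels. Pericyte and mesenchymal genes summed to 656 to 693 CPM at day 4 and 430 to 450 CPM at day 8. That fall lay in Pdgfra, described above as a precursor gene. Without it the sum went from 111 to 118 CPM to 135 to 163 CPM. Acta2, smooth muscle actin, rose by 2.71 ± 0.45. The part that a changed mixture of cells plays in the lists above was not tested. Of the opioid system, the targets of the 2 drugs, Oprm1, Oprd1 and Oprk1 had no count on either day, and Oprl1, the nociceptin receptor, gave 29.2, 23.4 and 24.8 CPM at day 4 and 26.9, 32.2 and 29.8 CPM at day 8, a change of 0.20 ± 0.13 [-0.09] that did not pass the test (adjusted p = 0.18). It was -0.19 under TPM scaling and 0.35 without the day 4 NC library (adjusted p = 0.037).

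**Figure D5:**
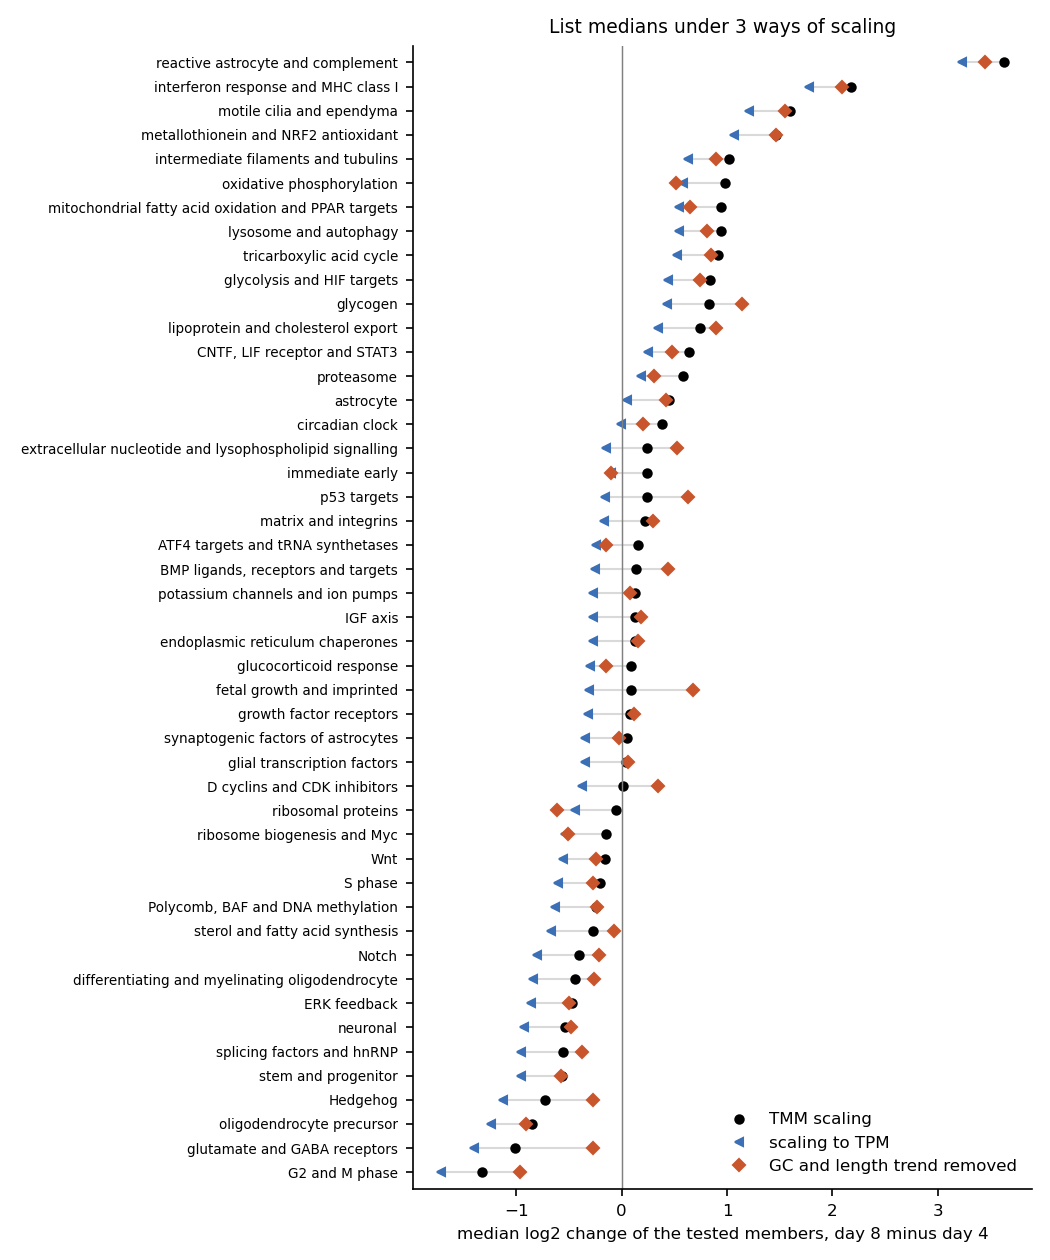
Median log2 change of day 8 minus day 4 (x axis) over the tested members of the lists with at least 9 tested genes under TMM scaling (black circles), scaling to TPM (blue triangles) and with the GC and length trend removed (orange diamonds). The reactive, interferon, cilia and antioxidant lists stay above 1 under all 3, and lists near 0 such as BMP, circadian and immediate early genes change sign.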

How the data were processed

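RNA was sequenced from 14 libraries of cultured mouse NSC, prepared from total RNA with an Illumina TruSeq kit per the labels' protocols. The authors deposited a table per library with expected counts, TPM and effective lengths per gene, made with Bowtie and RSEM on mm10 per the submitters' processing notes (versions and annotation not given in the sources used here). TPM divides by length and makes each library sum alike. The tables list 29713 genes, of which 29202 matched a GENCODE vM21 symbol and 29400 had a GC content from its transcripts, and mitochondrially encoded genes are not among them.

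Expected counts were rounded to whole numbers, filtered with filterByExpr, scaled with TMM and fitted with edgeR 4.0.16 (R 4.3.3, robust quasi-likelihood test) with stage and treatment as terms over 12 libraries, leaving 6 residual degrees of freedom. The passage 8 and passage 13 reference libraries were left out, since they belong to no day. Pairing comes from the labels, where each day has the same 3 treatments. P-values were Benjamini-Hochberg adjusted over all 13144 genes at a threshold of 0.05. They measure the spread between these libraries, which may be technical.

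The genes named are up to 15 rises and 15 falls of largest fitted change that averaged 5 CPM or more and moved alike in 3 pairs, up to 4 per list and direction, up to 5 per direction for the contrast of steps, and 38 genes always reported. Predicted genes were counted and not named, and a few genes the rule names are not reported here. Members, lists and tests were chosen with earlier results of these data known, and lists are described by counts and medians, with no set test. Outside the rule stand B2m, H2-T23, Txnrd1 and Sod1, shown for their promoters, and markers named for having no count, all chosen after their values were seen. Alternatives covered scaling, the filter, tools (DESeq2 1.42.0, limma 3.58.1), TPM with pseudocounts 1 and 0.1, the libraries fitted, the block, each library left out, and a trend on GC content and length removed per library (mgcv 1.9.3). List medians without that trend, lists without the day 8 Naloxone library, and marker sums without the members that moved most, were alternatives chosen after seeing the data. Counting intervals and floors are at 95% and 3 counts and cover counting error only. Promoters are RefSeq sequences of GRCm38.p6.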

Additional observations from a re-analysis of the deposited data

How the results depend on the processing

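The direction and the side of the threshold stayed the same for 187 of the 213 genes followed, over all alternatives run. The number of genes higher at day 8 fell from 4874 to 2688 when libraries were scaled to TPM and to 2521 and 2413 with limma on log2(TPM + 1) and log2(TPM + 0.1), and the number lower went from 4127 to 6361 with TPM scaling. With a change of at least 2-fold required as well, 1743 genes were higher, 2196 lower and 5254 differed between the steps. Leaving out 1 library at a time gave 4379 to 4712 genes higher, 3639 to 4005 lower and 6555 to 8824 different between steps. With no replicate block, stage being the only term, 4931 genes were higher, 4180 lower and 8358 differed between steps, and no gene named here changed its call. With the GC and length trend removed 4776 were higher and 3478 lower, of which 3449 and 2474 were also called by TMM alone, so nearly as many calls covered partly different genes. The filter, DESeq2, limma-voom and the other library sets moved no count by more than 1.5 times.

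Directions turned for 10 genes. Under TPM scaling, limma on log2(TPM + 1) and limma on log2(TPM + 0.1) the log2 change was -0.092, -0.097 and -0.097 for Sox9, -0.066, -0.14 and -0.14 for Mbp and -0.19, -0.37 and -0.39 for Oprl1. With the trend removed it was -0.020 for Aldoc, 0.23 for Bmpr1a, 0.76 for Nfia, -0.077 for Mbp, 0.11 for Hif1a, 0.016 for Sf3b1 and -0.095 for Oprl1. Tubb3 and Rbfox3, not called, crossed 0 with upper quartile scaling (0.0041 and 0.019). Rbfox3 did so with no replicate block (0.0030) and, with 1 library left out, ran from -0.038 to 0.028. Tubb3 ran from -0.093 to 0.057. The cause of these changes was not tested. The libraries of 4143030 to 9070533 estimated counts leave genes of a few counts, such as Aspg and Capn3, with folds known only within wide intervals.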

Other observations

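Clock genes moved both ways. The output factor Dbp gave 22.4, 26.6 and 25.2 CPM at day 4 and 134, 136 and 136 CPM at day 8 (2.46 ± 0.11, adjusted p = 3.3e-08) and the repressor Nr1d1 gave 17.3, 19.2 and 17.4 CPM at day 4 and 66.4, 67.6 and 65.2 CPM at day 8 (1.89 ± 0.10), while the activators Arntl and Clock fell by log2 changes of -1.10 ± 0.10 and -2.12 ± 0.42 [-0.43] and Per2, a repressor of the other arm, by -1.04 ± 0.18. Of 18 clock genes 10 rose and 5 fell, against 6 and 7 under TPM scaling, where the median turned from 0.38 to -0.01, and the hour at which each culture was harvested was not recorded in the labels. In the insulin-like growth factor axis 4 of 10 genes rose and 3 fell (3 and 4 under TPM scaling, median 0.12 turning to -0.27). These shares, 40% and 30%, were near the 37.1% and 31.4% of all genes. The binding proteins Igfbp5 and Igfbp7 rose, Igfbp5 from 613, 562 and 608 CPM to 4630, 5327 and 5124 CPM (3.08 ± 0.11) and Igfbp7 by 4.05 ± 0.28 [3.36], and the receptors Igf1r and Insr fell by log2 changes of -1.10 ± 0.12 and -0.89 ± 0.15. The imprinted RNA H19 gave 2.99, 2.03 and 2.78 CPM at day 4 and 42.1, 39.6 and 48.7 CPM at day 8 (4.05 ± 0.21), and Peg3, another imprinted gene, fell by a log2 change of -2.61 ± 0.27 [-1.42].

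Secreted factors and receptors known to act between astrocytes and synapses went both ways. Thbs1, a thrombospondin, gave 43.3, 41.7 and 50.7 CPM at day 4 and 213, 319 and 207 CPM at day 8 (2.43 ± 0.22, adjusted p = 2.5e-05), with the Naloxone library the highest, and Chrdl1, which matures glutamate receptors at synapses, rose by 2.72 ± 0.24 [3.93]. Ptn, pleiotrophin, fell by a log2 change of -1.84 ± 0.13 [-0.98]. Adora1, the adenosine A1 receptor, gave 138, 142 and 153 CPM at day 4 and 674, 756 and 657 CPM at day 8 (2.27 ± 0.07). Among immediate early genes Junb rose by 4.04 ± 0.18 and Ier3 by 4.05 ± 0.25 [3.38], and Myc fell by a log2 change of -0.75 ± 0.07. Of the 25 genes of that list 10 rose (40%) and 3 fell (12%), beside 37.1% and 31.4% of all genes. Under TPM scaling 8 rose and 7 fell, the median turning from 0.24 to -0.10. Of 20 genes on the list of p53 targets 10 rose and 3 fell, or 7 and 6 under TPM scaling, where the median turned from 0.24 to -0.16: Fas, a death receptor, gave 3.15, 4.24 and 3.47 CPM at day 4 and 39.5, 37.4 and 45.3 CPM at day 8 (3.48 ± 0.19 [4.07]), and Trp53inp1 fell by a log2 change of -2.04 ± 0.28 [-0.40]. The opioid peptide precursor Pdyn gave 0.664, 1.29 and 0.463 CPM at day 4 and 5.45, 4.74 and 4.51 CPM at day 8 (2.56 ± 0.41, adjusted p = 2.7e-04), a low level on both days.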
